A study of Mus musculus with 25 samples.

Results

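The AP-1 and immediate early genes described here are Fos, Fosb, Fosl1, Fosl2, Jun, Junb, Jund, Egr1, Ier2 and Ier3, taken by symbol from a table of 3′-end RNA counts of mouse hepatocytes. All 10 were found among its 37117 gene symbols, and each was followed over 25 libraries in 7 groups. Of the 10, 9 had enough counts to be tested and Fosl1 did not. The genes were chosen by name, with no measured value in the rule, but with earlier results of these data known.

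AP-1 is a dimeric transcription factor. A JUN protein pairs with another JUN protein or with a FOS protein through a leucine zipper, and the pair binds short palindromic DNA elements. FOS proteins cannot pair with each other, so the mix of transcripts bears on which dimers can form. Most of these genes belong to the immediate early class: growth factors, stress and tissue injury switch them on within minutes without new protein synthesis, through serum response factor, its partners and the MAP kinases, and their short-lived RNAs then decay. In the liver they are best known for their burst after partial hepatectomy, and enzymatic dissociation of tissue is also known to induce them. YAP, the coactivator held back by the LATS1 and LATS2 kinases of the Hippo pathway, acts through TEAD factors that often sit beside AP-1 at enhancers.

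The ApoYap Dox group (3 libraries) carried the transgenes ApoE-rtTA and TRE-hYAP, so that doxycycline switches on human YAP through an rtTA activator placed under ApoE, and drank 0.2 mg/ml doxycycline in water with 2.5% sucrose for 1 week. ApoYap ctrl (4 libraries) was the same strain without doxycycline. The Lats1/2 KO group (3 libraries) carried floxed alleles of Lats1 and Lats2 and was taken 1 week after an AAV8 virus that expresses Cre from the hepatocyte-specific TBG promoter, and Lats1/2 flox ctrl (4 libraries) was the floxed strain without virus. Plain C57BL/6 mice received the same doxycycline water for 1 week (BL/6 Dox, 4 libraries), the same virus for 24 hours (BL/6 AAV-Cre, 3 libraries) or nothing (BL/6 ctrl, 4 libraries). Virus time therefore differed between the knockout and its BL/6 control group, and no group received a virus without Cre. Every liver was perfused with collagenase and incubated for 20 minutes at 37 °C, and 500000 sorted cells per library were lysed, so all levels are those after dissociation. The time from perfusion to lysis of each library was not used here, and its part in the values was not tested.

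Libraries held 8107539 to 16515330 counts. Levels are given as CPM, counts divided by library size after TMM scaling. With this scaling 1 count was worth 0.0361 to 0.141 CPM, and the scaling factors were 1.68 to 1.84 in ApoYap Dox, 1.14 to 1.29 in Lats1/2 KO and 0.83 to 0.98 in all other groups. A 3′-end count does not grow with transcript length, so levels can be set side by side between genes. Lats1 was at 5.10, 4.79 and 2.97 CPM in Lats1/2 KO, against 13.9, 12.3, 13.0 and 14.9 CPM in flox ctrl. Lats2 was at 7.70, 17.8 and 10.5 CPM in Lats1/2 KO, against 13.1, 12.9, 13.7 and 13.0 CPM in flox ctrl, which checks nothing where the counted 3′ end lies outside the deleted part. The transgene is human YAP, and whether its reads were counted under a mouse symbol was not examined. The 8 hepatocyte markers (Alb, Ttr, Apoa1 and others) were detected in every group, so the labelled cell type was present throughout. Their sum lay between 25922 and 36473 CPM in ApoYap Dox libraries and between 64060 and 84184 CPM in those of ApoYap ctrl. It lay between 46846 and 50609 CPM in Lats1/2 KO libraries and between 73394 and 86905 CPM in those of flox ctrl. Nothing in the labels ties replicates to separate animals, so p-values measure the spread between these libraries.

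The Lats1/2 KO libraries stood apart from each other in these genes. The 10 genes together summed to 2610.3, 1354 and 326 CPM in Lats1/2 KO libraries 1, 2 and 3, against 777, 574, 682 and 684 CPM in flox ctrl. Library KO 3 was the lowest of its group for all 9 tested genes and the lowest of all 25 libraries for 6 of them (Fos, Fosb, Jun, Junb, Egr1 and Ier2), while KO 1 was the highest of its group for all 9 and the highest of all 25 for Fos, Fosb, Jun and Jund. Calls of the members that rest on these libraries are given with and without them.

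**Figure D1:**
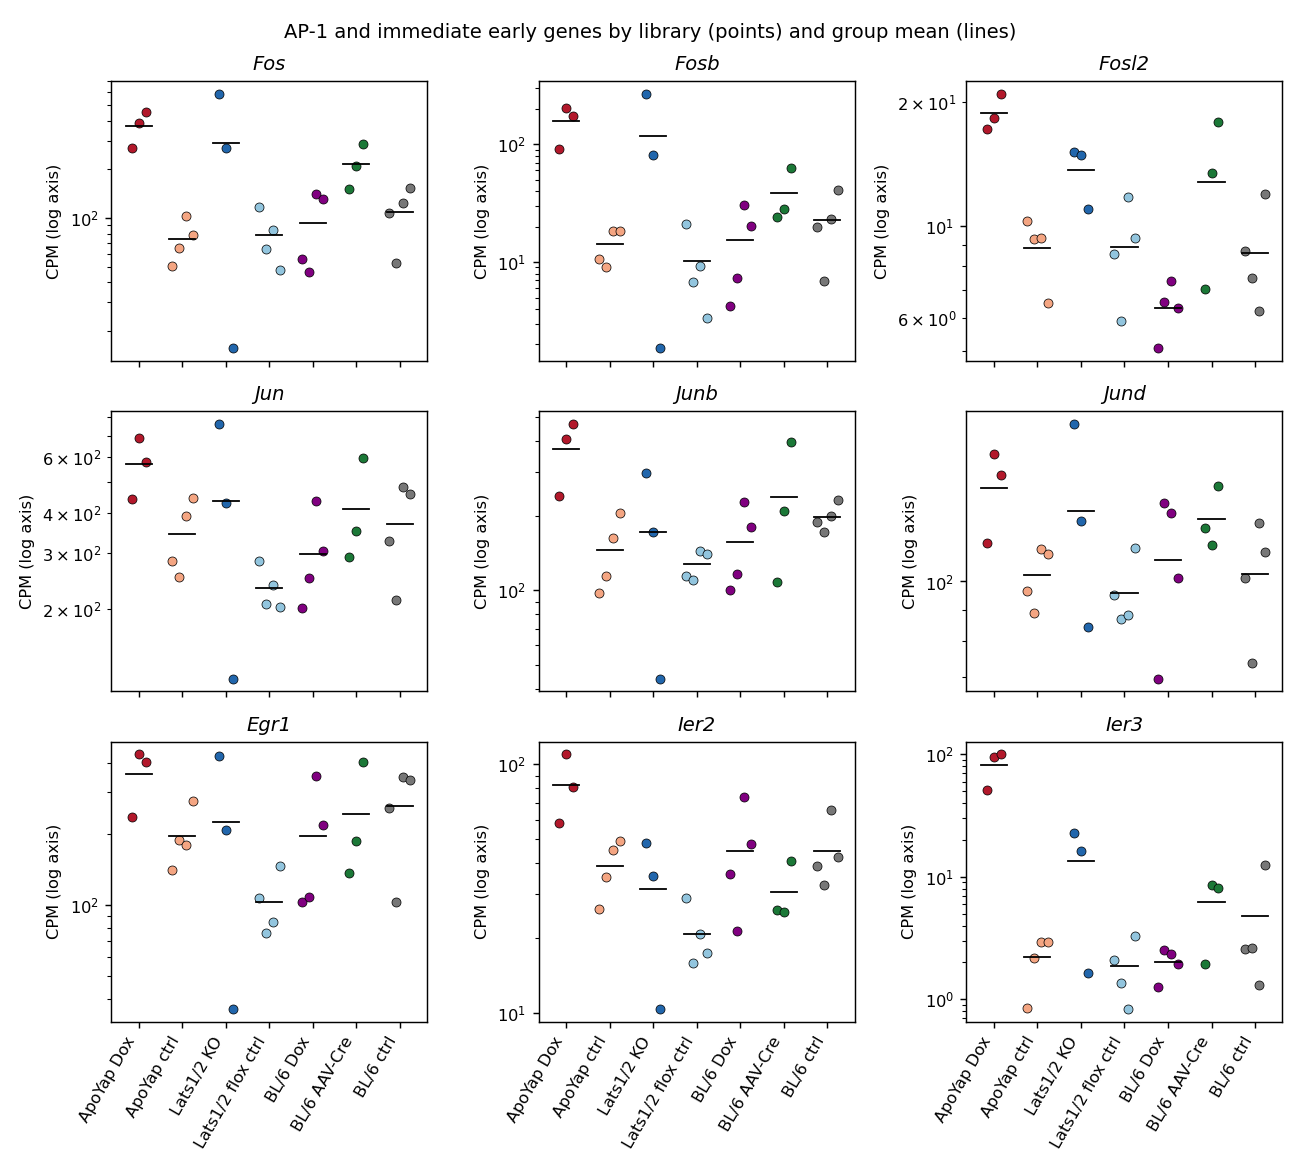
CPM (log axis, one panel per gene) of the 9 tested genes in each library (points) with the mean of each group (line). ApoYap Dox libraries lie above all ApoYap ctrl libraries for 7 genes, and the Lats1/2 KO libraries spread from 15.6 to 587 CPM for Fos.

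In ApoYap Dox hepatocytes 6 of the 9 tested genes rose against ApoYap ctrl and none fell (edgeR quasi-likelihood test, Benjamini-Hochberg adjusted p under 0.05 over 12970 genes). They were Ier3, Fosb, Fos, Junb, Ier2 and Fosl2, with fold changes of 2.11 to 38.1. The background is broad: 35.0% of all tested genes were called higher and 32.0% lower in this comparison. The median log2 fold change was 1.09 over the 9 genes and 0.068 over all genes. Every ApoYap Dox library lay above every ApoYap ctrl library for 7 of the 9 genes, as for 36.7% of all genes. All 15 markers of macrophages also rose here, to sums between 7855 and 12762 CPM in ApoYap Dox libraries where ApoYap ctrl libraries had between 104 and 235 CPM, and their part in the members' changes was not tested.

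Fos, the founding FOS protein, was at 270.5, 389 and 454 CPM in the ApoYap Dox libraries, against 50.6, 65.6, 103 and 78.0 CPM in ApoYap ctrl. The groups did not overlap, and the difference was 2.32 on the log2 scale (SE 0.69, adjusted p = 0.00623, edgeR). Fosb, whose product pairs with JUN proteins as FOS does, was at 91.7, 204 and 173 CPM in ApoYap Dox, against 10.7, 9.05, 18.3 and 18.4 CPM in ApoYap ctrl. Every ApoYap Dox library was far above the highest control, and the log2 fold change was 3.48 (SE 0.96, adjusted p = 0.00355, edgeR). Fosl2, which encodes FRA-2, a FOS protein with no strong activation domain, was the scarcest of the tested FOS genes by its mean in both groups and varied least between replicates. It stood at 17.2, 18.2 and 20.9 CPM in ApoYap Dox, against 10.3, 9.31, 9.35 and 6.52 CPM in ApoYap ctrl, with no overlap and a difference of 1.07 on the log2 scale (SE 0.24, adjusted p = 0.000406, edgeR). Fosl1, which encodes FRA-1, had 7 counts in the whole table: 1 in ApoYap Dox 1, 3 in ApoYap Dox 2, none in the other ApoYap libraries or in any Lats1/2 library, and 3 in BL/6 ctrl 2. At a count of 0, up to 3 counts in a library cannot be told from none, so no level or direction is given for Fosl1.

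Among the JUN genes only Junb passed the test. Junb, whose product activates less strongly than JUN in many settings, was at 239.8, 410.3 and 470.2 CPM in ApoYap Dox, against 97.3, 114, 163 and 205 CPM in ApoYap ctrl. The groups did not overlap, and the log2 fold change was 1.37 (SE 0.47, adjusted p = 0.0158, edgeR), although without ApoYap Dox 3 it was 1.17 with an adjusted p of 0.0660. Jun itself, needed for normal liver regeneration in mice, was at 445, 690.1 and 581 CPM in ApoYap Dox, against 282, 253, 391 and 448 CPM in ApoYap ctrl. ApoYap Dox 1 lay just below ApoYap ctrl 4, and the difference of 0.74 (SE 0.42, adjusted p = 0.133, edgeR) did not pass. Jund, the most constant JUN gene in most tissues, was at 116, 161 and 149 CPM in ApoYap Dox, against 96.6, 88.9, 113 and 111 CPM in ApoYap ctrl, a log2 difference of 0.47 (SE 0.22, adjusted p = 0.0603, edgeR). Its groups did not overlap, but the lowest ApoYap Dox library was close to the highest control. Without ApoYap Dox 1 the adjusted p for Jund was 0.0344. Jun and Jund were called with DESeq2, at adjusted p of 0.0455 and 0.0204, and by edgeR fitted to these 2 groups alone (0.00965 and 0.00956). Jund was also called with RLE scaling (adjusted p = 0.0255) and with the 10 CPM filter (adjusted p = 0.0299), so the place of both genes on either side of the threshold depends on the fit.

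The remaining members are not AP-1 subunits. Ier3, an early response gene linked to cell survival under stress, showed the largest change of the 9. It was at 50.8, 95.6 and 100.2 CPM in ApoYap Dox, against 0.848, 2.18, 2.91 and 2.91 CPM in ApoYap ctrl. The groups were far apart, by 5.25 on the log2 scale (SE 0.76, 95% interval 3.66 to 6.85, adjusted p = 5.24e-06, edgeR). The control values rest on only 95 counts over 4 libraries, against 5596 counts over the 3 ApoYap Dox libraries. Ier2, a nuclear protein of the early growth response, was at 57.9, 109.7 and 80.7 CPM in ApoYap Dox, against 26.1, 35.1, 45.3 and 49.3 CPM in ApoYap ctrl. Its groups did not overlap and its log2 fold change was 1.09 (SE 0.42, adjusted p = 0.0281, edgeR). That call was lost without ApoYap Dox 2 (0.83, adjusted p = 0.132), ApoYap Dox 3 (adjusted p = 0.0536), ApoYap ctrl 1 (adjusted p = 0.0790) or ApoYap ctrl 2 (adjusted p = 0.0596). Egr1, a zinc finger factor and serum response target, was at 236, 435 and 406 CPM in ApoYap Dox, against 141, 189, 179.9 and 276 CPM in ApoYap ctrl. ApoYap Dox 1 lay below ApoYap ctrl 4, and the difference of 0.87 (SE 0.61, adjusted p = 0.214, edgeR) did not pass. With edgeR fitted to these 2 groups alone it did (adjusted p = 0.0111), and all 9 genes were called higher in that fit, where 36.9% of all genes were. ApoYap Dox 1 was the lowest ApoYap Dox library for all 9 genes.

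**Figure D2:**
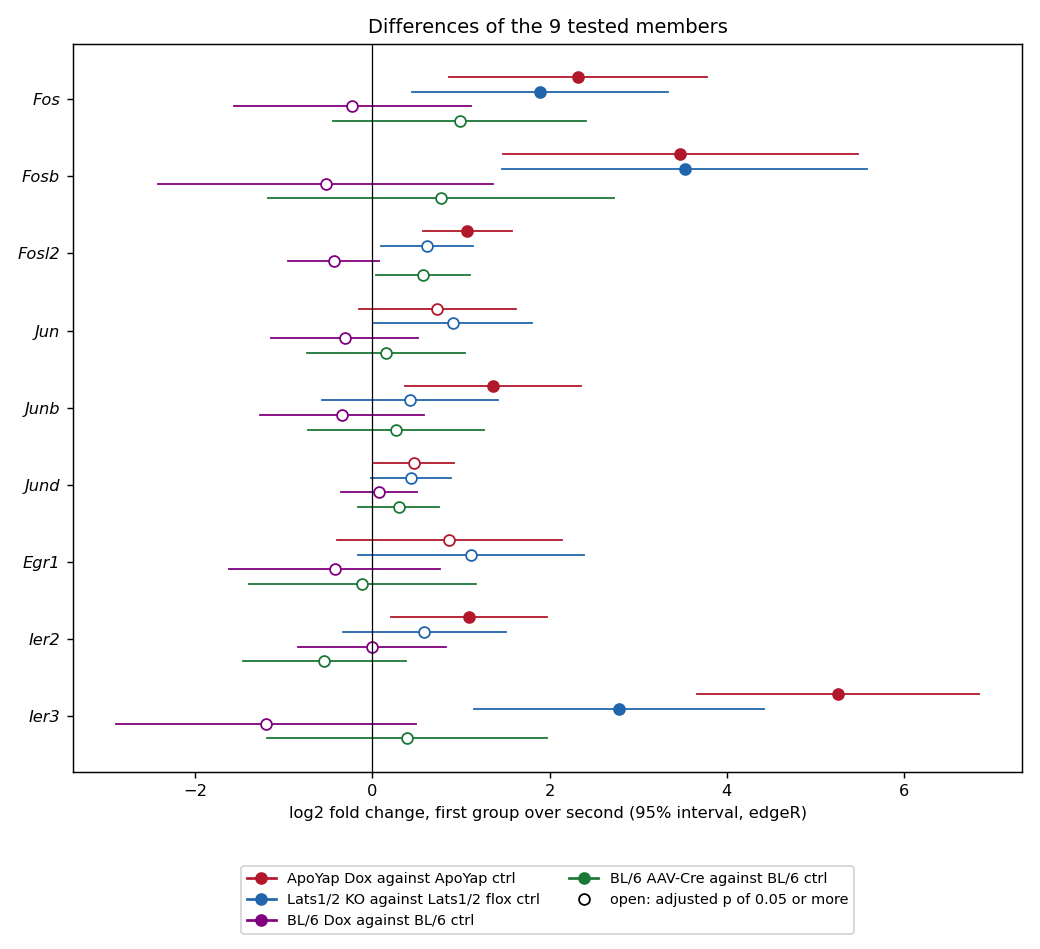
Log2 fold change (edgeR, 95% interval) of the 9 tested genes in 4 comparisons, the group named before "against" over the group named after it; filled circles passed an adjusted p of 0.05. The point estimates of both YAP-raising models lie to the right of 0 for all 9 genes, and no gene passed in BL/6 Dox or BL/6 AAV-Cre. The intervals include 0 for Egr1 and Jun in ApoYap Dox, and for Egr1, Ier2, Junb and Jund in Lats1/2 KO.

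The scaling sets the reference point of these changes. With total counts alone as the scale, the median log2 fold change of all genes in ApoYap Dox moved to 0.986 and all 9 members were called higher, while with TMM it was 0.068. The share of called genes that were higher was 84.0% with total counts and 52.2% with TMM. Relative to the median of all genes under total counts, the members stood at 0.40 (Jund) to 5.18 (Ier3). In Lats1/2 KO the corresponding median moved to 0.442, with 7 of 9 members called, and the share of called genes that were higher was 91.0% with total counts and 54.2% with TMM. The share of all tested genes called higher with total counts is not given here. The 9 of 9 and 7 of 9 are therefore not read as a result about the members.

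The promoters of Fos, Fosb, Junb and Ier3 are printed since these were the 4 most raised members in ApoYap Dox. Each stretch is the 150 bases before the RefSeq start of the gene (GRCm38.p6), 5′ to 3′ on the gene's own strand, with capitals where a searched motif matched. Fos is on the forward strand at chr12:85473740-85473889, Fosb on the reverse strand at chr7:19310046-19310195, Junb on the reverse strand at chr8:84978749-84978898 and Ier3 on the forward strand at chr17:35821563-35821712.
Fos: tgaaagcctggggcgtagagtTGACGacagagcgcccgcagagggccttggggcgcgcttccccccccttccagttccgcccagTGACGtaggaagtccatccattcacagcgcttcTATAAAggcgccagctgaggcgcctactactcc
Fosb: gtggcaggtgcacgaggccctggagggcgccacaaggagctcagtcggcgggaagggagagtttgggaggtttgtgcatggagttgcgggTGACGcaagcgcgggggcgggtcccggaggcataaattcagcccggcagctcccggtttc
Junb: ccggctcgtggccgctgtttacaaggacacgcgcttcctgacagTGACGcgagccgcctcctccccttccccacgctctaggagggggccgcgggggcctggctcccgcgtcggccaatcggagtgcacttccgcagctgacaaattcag
Ier3: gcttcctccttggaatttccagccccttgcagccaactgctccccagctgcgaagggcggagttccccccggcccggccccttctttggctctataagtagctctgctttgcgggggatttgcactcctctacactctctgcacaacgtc
The motifs searched on both strands of the 250 bases before the start were TGACG (the core of cyclic AMP response elements), TGANTCA (the AP-1 element), the CArG box of serum response factor, GGAATG (a TEAD element) and TATAAA. Of all 32851 promoters, 17.8% held TGACG, 6.75% TGANTCA, 1.47% a CArG box, 12.6% GGAATG and 12.4% TATAAA. Fos had TGACG starting 129 and 66 bases before its start and TATAAA 33 bases before it, Fosb had TGACG 60 bases before its start, and Junb had TGACG 106 bases before its start. Ier3 had none of these letters in its window, nor had Jun, Fosl2 or Jund. The Jund window ended at chr8:70697738, well before the GENCODE M21 start of the gene at 70698949. The Fosl2 window ended at chr5:32136471, inside the GENCODE M21 gene, which starts at 32135801. For Jund and Fosl2 the bases just before the GENCODE start were therefore not searched. Bases farther than 250 before the RefSeq start were searched for no gene. RefSeq promoter entries matched 7 of the 10 genes, and Fosl1, Egr1 and Ier2 had none.

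In Lats1/2 KO hepatocytes 3 of the 9 tested genes rose against flox ctrl and none fell: Fosb, Ier3 and Fos. The background was 20.6% of all tested genes called higher and 17.4% lower. The median log2 fold change was 0.913 over the 9 genes and -0.028 over all genes. For none of the 9 did all KO libraries lie above all controls, as they did for 20.9% of all genes. The 15 macrophage markers rose in this comparison too, and summed highest in KO 2.

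Fos was at 587, 271 and 15.6 CPM in Lats1/2 KO libraries 1, 2 and 3, against 117, 64.2, 83.7 and 47.8 CPM in flox ctrl. KO 1 and KO 2 exceeded every control and KO 3 lay below every control. The log2 fold change was 1.90 (SE 0.69, adjusted p = 0.0361, edgeR), and the call was lost without KO 1 (0.87, adjusted p = 0.376), without KO 2 (adjusted p = 0.0743) and without flox ctrl 2, 3 or 4 (adjusted p = 0.0804, 0.0648 and 0.0874). Fosb spread still more widely, at 268, 80.5 and 1.86 CPM in Lats1/2 KO, against 21.1, 6.81, 9.29 and 3.35 CPM in flox ctrl. Its log2 fold change was 3.53 (SE 0.98, adjusted p = 0.00816, edgeR), and without KO 1 it was 2.02 with an adjusted p of 0.120. With edgeR fitted to these 2 groups alone, neither Fos nor Fosb was called. Of 17 alternatives run, Fos had an adjusted p under 0.05 in 10 and Fosb in 15. Fosl2 was the exception to the spread, at 15.1, 14.8 and 11.0 CPM in Lats1/2 KO, against 8.56, 5.91, 11.8 and 9.37 CPM in flox ctrl. KO 3 was within the control range, and the difference of 0.61 (SE 0.25, adjusted p = 0.0554, edgeR) did not pass. It passed without KO 3 (adjusted p = 0.0338) or without flox ctrl 3 (adjusted p = 0.0268), with RLE scaling, total counts, TMM without the top 50 genes or the 10 CPM filter (adjusted p of 0.00171 to 0.0490), and with DESeq2 (adjusted p = 0.0327).

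Jun was at 762, 431 and 121 CPM in Lats1/2 KO, against 283, 207, 238 and 203 CPM in flox ctrl, and Junb was at 299, 172 and 44.0 CPM in Lats1/2 KO, against 114, 109.9, 145 and 141 CPM in flox ctrl. Both were below every control in KO 3 and above every control in KO 1 and KO 2. Their log2 differences were 0.91 for Jun (SE 0.42, adjusted p = 0.0990, edgeR) and 0.43 for Junb (SE 0.47, adjusted p = 0.519, edgeR), neither of which passed. Without KO 1 the Junb difference turned to -0.24 (adjusted p = 0.759). Jund was at 180.3, 125 and 84.3 CPM in Lats1/2 KO, against 94.9, 87.0, 88.1 and 113 CPM in flox ctrl, a difference of 0.44 (SE 0.22, adjusted p = 0.122, edgeR). Its KO 3 value was just under the control range, the least divergent of the JUN genes.

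Ier3 was at 22.7, 16.1 and 1.64 CPM in Lats1/2 KO, against 2.08, 1.36, 0.834 and 3.25 CPM in flox ctrl. KO 1 and KO 2 were far above the controls and KO 3 among them, and the log2 difference was 2.78 (SE 0.78, adjusted p = 0.00832, edgeR), or 2.18 without KO 1 (adjusted p = 0.0558). Egr1 was at 428, 208 and 36.2 CPM in Lats1/2 KO, against 107, 75.6, 84.9 and 146 CPM in flox ctrl, a difference of 1.11 (SE 0.61, adjusted p = 0.163, edgeR). Ier2 was at 48.4, 35.7 and 10.4 CPM in Lats1/2 KO, against 29.1, 15.9, 20.7 and 17.4 CPM in flox ctrl, a difference of 0.59 (SE 0.44, adjusted p = 0.316, edgeR). In both genes KO 1 and KO 2 were above every control and KO 3 below every control.

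The number of members called in Lats1/2 KO therefore followed which library was in the fit. Without KO 3, 8 of the 9 rose, all but Junb (adjusted p = 0.0998), with log2 fold changes of 2.45 for Fos, 4.11 for Fosb, 0.75 for Fosl2, 1.36 for Jun, 0.67 for Jund, 1.62 for Egr1, 1.01 for Ier2 and 3.32 for Ier3. In that fit 20.9% of all genes were called higher. Without KO 1 none of the 9 was called, where 18.1% of all genes were called higher. DESeq2 called 5 members (22.4% of all genes higher) and edgeR fitted to these 2 groups alone called 1, Ier3 (18.5% of all genes higher).

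In library KO 3, where most members were low, Lats1 was low too and the YAP targets Ccn1, Ccn2 and Amotl2 were high, while Ankrd1 lay near control level. Lats1 was lowest in KO 3 and all 3 libraries were below every control. Ccn2, a direct YAP and TEAD target, was at 62.5, 135 and 149 CPM in KO 1, 2 and 3, against 1.32, 1.25, 1.19 and 1.28 CPM in flox ctrl, so it was highest in KO 3. Amotl2, another YAP target, was at 95.8, 77.2 and 70.6 CPM in Lats1/2 KO, against 11.4, 16.4, 10.6 and 9.17 CPM in flox ctrl, and like the members it ran from highest in KO 1 to lowest in KO 3, over a much narrower range. Ccn1, both a YAP target and an immediate early gene, was at 122, 118 and 48.9 CPM in Lats1/2 KO, against 9.77, 8.86, 8.22 and 5.52 CPM in flox ctrl, lowest in KO 3 but still above every control. Ankrd1, a further YAP target, was at 2.85, 2.81 and 0.424 CPM in KO 1, 2 and 3, against 0.329, 0.341, 0.357 and 0 CPM in flox ctrl, on 33, 41 and 8 counts in the KO libraries and at most 3 in a control, so in KO 3 it was close to the highest control. Atf3, a stress-induced partner of JUN proteins, was at 204, 65.1 and 4.67 CPM in Lats1/2 KO, against 22.7, 12.7, 12.5 and 12.9 CPM in flox ctrl, and in KO 3 it lay below every control, as Fos did. The 25 other immediate early genes of a list summed to 2789.5, 2025 and 1104 CPM in Lats1/2 KO, against 1184, 1106, 1102 and 1406 CPM in flox ctrl, so KO 3 was inside the control range on that sum. The 8 heat shock genes summed to 790.5, 714 and 868 CPM in Lats1/2 KO, against 1097, 1266, 1444 and 1208 CPM in flox ctrl.

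**Figure D3:**
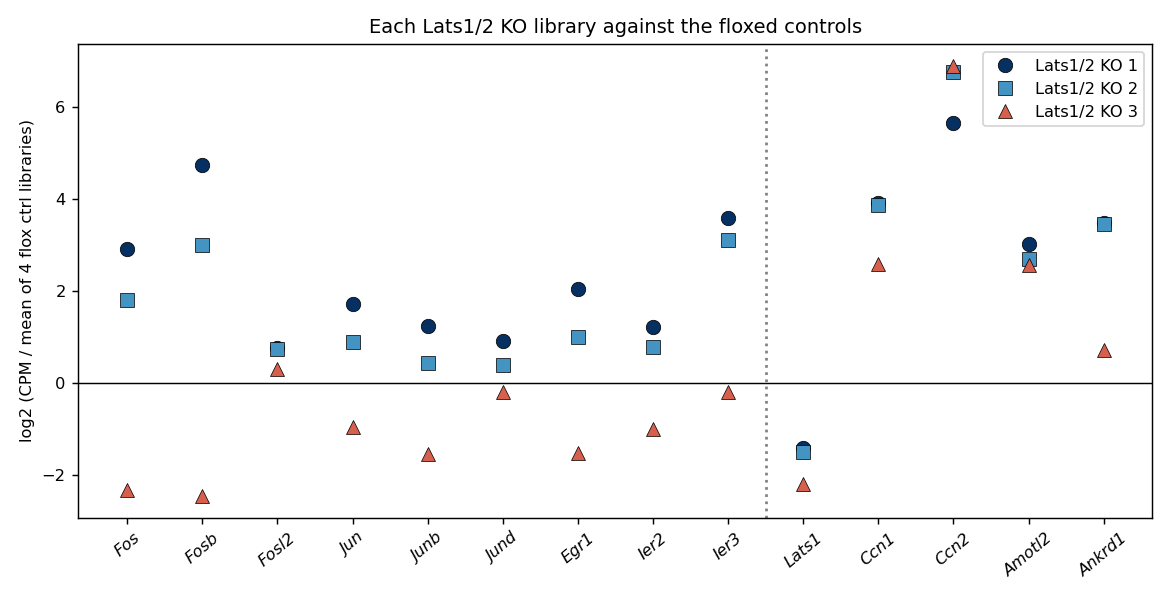
Log2 ratio of each Lats1/2 KO library's CPM to the mean of the 4 flox ctrl libraries for the 9 members (left of the dotted line) and for Lats1 and the YAP targets Ccn1, Ccn2, Amotl2 and Ankrd1 (right of it; Ankrd1 has at most 3 counts in a control). KO 3 is below 0 for 8 of the 9 members, all but Fosl2. Ccn2 is highest in KO 3, while Ankrd1 at 0.72 is far below its values in KO 1 and KO 2.

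Doxycycline or virus alone called none of the members in C57BL/6 mice. In BL/6 Dox against BL/6 ctrl edgeR called 0 of 9, with 0 at an unadjusted p under 0.05 and 0 by DESeq2, where 0.123% of all genes were called by edgeR. Log2 differences ran between -1.20 (Ier3, adjusted p = 0.569) and 0.08 (Jund). Fos was at 55.3, 46.6, 141 and 132 CPM in BL/6 Dox, against 107, 52.6, 124 and 154 CPM in BL/6 ctrl. Ier3 was at 1.27, 2.5, 2.36 and 1.94 CPM in BL/6 Dox, against 2.59, 2.63, 1.29 and 12.5 CPM in BL/6 ctrl, where library 4 alone was high. Fosl2 was at 5.08, 6.55, 7.36 and 6.35 CPM in BL/6 Dox, against 8.72, 7.52, 6.24 and 11.9 CPM in BL/6 ctrl, a difference of -0.44 (adjusted p = 0.493). Both groups were spread: BL/6 Dox 3 was the highest of its group for 7 of 9 genes and BL/6 Dox 1 the lowest for 7, and BL/6 ctrl 2 was the lowest of its group for 7.

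Virus alone, sampled at 24 hours, likewise gave 0 of 9 calls by edgeR and 0 by DESeq2, with 1 gene (Fosl2) at an unadjusted p under 0.05, where 0.301% of all genes were called by edgeR. Fos was at 152, 210.1 and 288 CPM in BL/6 AAV-Cre, against 107, 52.6, 124 and 154 CPM in BL/6 ctrl. BL/6 AAV-Cre 1 lay just below the highest control, and the log2 difference was 0.98 (95% interval -0.44 to 2.41, adjusted p = 0.569, edgeR). The interval includes the 1.90 of the knockout, so these libraries cannot tell a change of that size from none. Fosl2 was at 7.05, 13.5 and 17.9 CPM in BL/6 AAV-Cre, a difference of 0.57 (adjusted p = 0.330, edgeR) from BL/6 ctrl. Fosb was at 24.1, 28.3 and 63.2 CPM in BL/6 AAV-Cre, against 19.8, 6.92, 23.1 and 40.6 CPM in BL/6 ctrl, and Ier2 was at 26.1, 25.6 and 40.8 CPM in BL/6 AAV-Cre, against 39.1, 32.8, 65.3 and 42.6 CPM in BL/6 ctrl. BL/6 AAV-Cre 3 was the highest of its group for 8 of 9 genes and BL/6 AAV-Cre 1 the lowest for 7.

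Taken net of doxycycline in BL/6 mice, 5 of the 9 genes rose in ApoYap Dox (26.7% of all genes were called higher in this difference of differences). Ier3 stood at 6.45 (SE 1.09, adjusted p = 5.5e-05), Fosb at 4.00 (SE 1.30, adjusted p = 0.0145), Fos at 2.54 (SE 0.94, adjusted p = 0.0285), Junb at 1.71 (SE 0.65, adjusted p = 0.0329) and Fosl2 at 1.51 (SE 0.35, adjusted p = 0.000713) on the log2 scale with edgeR. Jun (1.05, adjusted p = 0.137), Ier2 (1.09, adjusted p = 0.123), Egr1 (1.29, adjusted p = 0.201) and Jund (0.39, adjusted p = 0.279) did not pass. The Fosb, Fosl2 and Ier3 calls held without any single library. Without BL/6 Dox 1 and 2, the lower pair of that group, only Fosl2 and Ier3 were called (24.3% of all genes higher), and Fos was 2.00 (adjusted p = 0.127), Fosb 3.31 (adjusted p = 0.0699) and Junb 1.32 (adjusted p = 0.148). For Fos, Fosb and Junb this pair held the lowest values of the group. Smaller differences were therefore bound to follow, and no conclusion is drawn from that fit. The Fos call was also lost without any of ApoYap Dox 3, ApoYap ctrl 1, BL/6 Dox 1, BL/6 Dox 2 or BL/6 ctrl 4 (adjusted p of 0.0533 to 0.0609), and the Junb call without those or ApoYap Dox 2 or ApoYap ctrl 2 (adjusted p of 0.0548 to 0.0838) or without the filter on low counts (adjusted p = 0.0521). Ier2 was called without BL/6 Dox 3 (1.44, adjusted p = 0.0411).

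Net of virus in BL/6 mice, 0 of the 9 genes was called in Lats1/2 KO by edgeR and 0 by DESeq2, with 1 (Ier3) at an unadjusted p under 0.05, where 13.0% of all genes were called higher. Fosb stood at 2.75 (adjusted p = 0.148), Ier3 at 2.39 (adjusted p = 0.122), Ier2 at 1.13 (adjusted p = 0.197) and Fos at 0.91 (adjusted p = 0.539) on the log2 scale with edgeR. Without KO 3, where 14.0% of all genes were called higher, 3 were called: Fosb at 3.33 (adjusted p = 0.0215), Ier3 at 2.93 (adjusted p = 0.0241) and Ier2 at 1.56 (adjusted p = 0.0368). Without KO 1 the Fos value turned to -0.11 (adjusted p = 0.959).

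The responses of Lats1/2 KO and ApoYap Dox to their own controls were also compared directly. None of the 9 genes passed, by edgeR or by DESeq2, with 1 (Ier3) at an unadjusted p under 0.05, where 17.4% of all genes were called higher and 12.4% lower. The widest differences were -2.47 for Ier3 (95% interval -4.81 to -0.13, adjusted p = 0.105, edgeR) and -0.94 for Junb (95% interval -2.35 to 0.47, adjusted p = 0.322, edgeR), both smaller in the knockout. The intervals are wide, and these values do not show that the responses were alike.

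After dissociation, untreated hepatocytes held most of these transcripts at clear levels. In BL/6 ctrl, Fosl1 had only 3 counts and Ier3 had 177. In BL/6 ctrl, means ran in the order Jun 371 ± 126 CPM, Egr1 262 ± 114, Junb 198 ± 25.2, Fos 109 ± 42.4, Jund 103 ± 21.6, Ier2 45.0 ± 14.2, Fosb 22.6 ± 13.9, Fosl2 8.61 ± 2.44 and Ier3 4.75 ± 5.20 (SD, n = 4). The ranges of neighbours in this order overlapped, except between Junb and Fos and between Jund and Ier2. In flox ctrl against BL/6 ctrl, edgeR called 0 of 9, with 2 (Ier2 and Egr1) at an unadjusted p under 0.05 and 1 (Ier2) by DESeq2, where 3.15% of all genes were called higher and 0.971% lower. Ier2 stood at -1.11 (adjusted p = 0.142, edgeR) and every flox ctrl library was below every BL/6 ctrl library, as for Junb, and as for 5.89% of all genes. Egr1 stood at -1.34 (adjusted p = 0.210, edgeR). ApoYap ctrl against BL/6 ctrl gave 0 of 9 calls by edgeR, 0 at an unadjusted p under 0.05 and 0 by DESeq2, where 0.439% of all genes were called, and Ier3 was farthest from 0 at -1.13 (adjusted p = 0.843, edgeR).

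The make-up of the AP-1 transcripts is given as a description, with no test. The summed FOS genes over the summed JUN genes gave a ratio of 0.50 ± 0.0355 in ApoYap Dox, against 0.166 ± 0.0286 in ApoYap ctrl (SD, n = 3 and 4). The ratio was 0.701, 0.503 and 0.114 in Lats1/2 KO 1, 2 and 3, against 0.298, 0.190, 0.223 and 0.133 in flox ctrl, so KO 3 lay below the control range here too. In BL/6 AAV-Cre it was 0.351, 0.373 and 0.324 and in BL/6 Dox 0.174, 0.120, 0.225 and 0.270, against 0.220, 0.147, 0.189 and 0.258 in BL/6 ctrl. The 3 virus libraries lay above all 4 controls in this ratio, although no single FOS or JUN gene passed the test there. Within the FOS genes, Fosb made up 28.1 ± 4.72% in ApoYap Dox, against 14.4 ± 2.94% in ApoYap ctrl. Fosl2 made up 3.58 ± 0.829% in ApoYap Dox, against 9.74 ± 3.74% in ApoYap ctrl. Within the JUN genes, Junb made up 33.9 ± 4.75% in ApoYap Dox, against 24.2 ± 2.71% in ApoYap ctrl, and Jund 13.2 ± 1.07% in ApoYap Dox, against 17.8 ± 2.63% in ApoYap ctrl. Jun remained the most abundant JUN transcript in both, at 52.9 ± 3.92% in ApoYap Dox, against 58.0 ± 1.74% in ApoYap ctrl. The Junb share of ApoYap Dox libraries (30.0 to 39.2%) overlapped that of BL/6 ctrl (24.7 to 37.5%). In BL/6 ctrl Jund made up 15.5 ± 1.11%, Fosb 14.9 ± 3.84% and Fosl2 6.86 ± 3.03%. In Lats1/2 KO Junb made up 21.8 ± 3.57%, against 28.0 ± 3.59% in flox ctrl. Jund made up 21.9 ± 10.5% there, against 21.1 ± 2.75% in flox ctrl. Fosb made up 19.8 ± 12.3% in Lats1/2 KO, against 9.40 ± 3.65% in flox ctrl. These are ratios within a library and do not depend on the scaling between libraries.

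**Figure D4:**
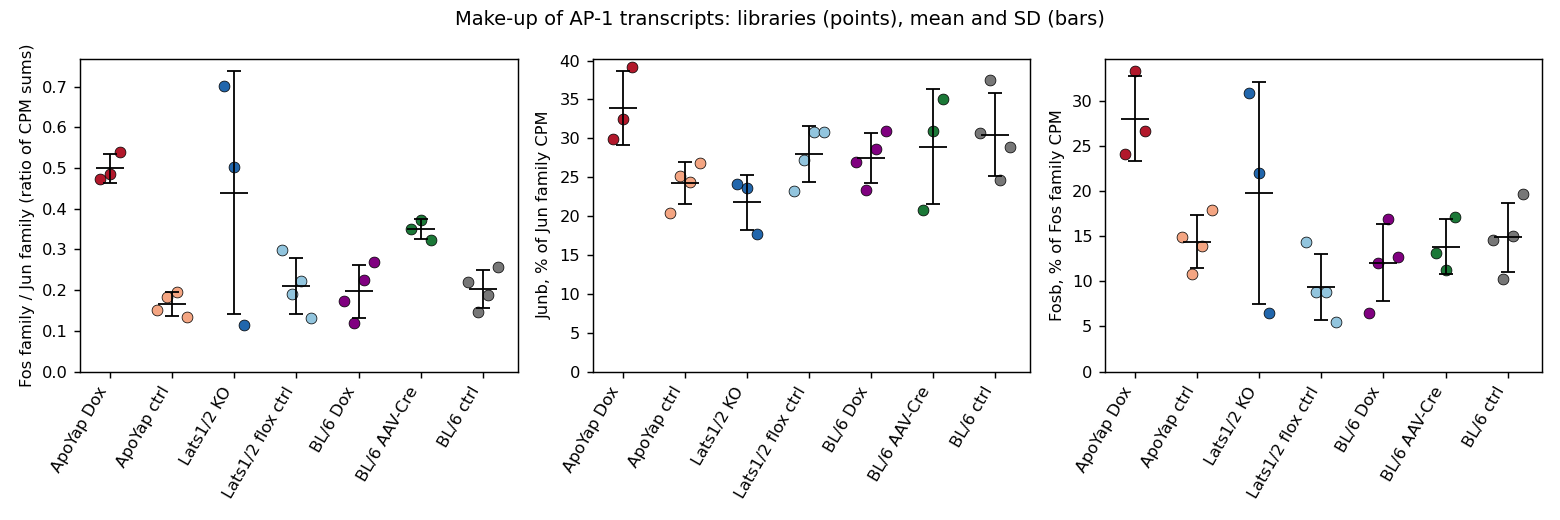
Ratio of summed FOS to summed JUN gene CPM (left), Junb as a percent of the JUN genes (middle) and Fosb as a percent of the FOS genes (right) in each library (points), with mean and SD per group (bars). ApoYap Dox lies above ApoYap ctrl in all 3 panels, and the Lats1/2 KO libraries span 0.114 to 0.701 in the ratio. In the Junb panel ApoYap Dox overlaps BL/6 ctrl.

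In the GENCODE M21 annotation of GRCm38, Fos lies at chr12:85473890-85477273, Fosb at chr7:19302696-19310051, Fosl2 at chr5:32135801-32157842, Jun at chr4:95049034-95052222, Junb at chr8:84974484-84978718, Jund at chr8:70698949-70700616, Egr1 at chr18:34859823-34864984, Ier2 at chr8:84661331-84662852 and Ier3 at chr17:35821684-35822923, all protein coding. Junb overlaps Prdx2 on the opposite strand, which had 35230 counts in all. Whether strand was used in counting is not stated, and Junb reads cannot be fully told apart from Prdx2 reads. Jun overlaps the antisense gene Junos, which had 217 counts in all.

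Members differed in how much they varied between replicates. The biological coefficient of variation, the spread between replicates beyond counting noise that edgeR estimates per gene, was 0.814 for Fosb, 0.662 for Ier3, 0.598 for Fos and 0.538 for Egr1, against a median of 0.191 over all tested genes. Fosb was at percentile 99.5 of all genes and Fos at 97.2. Junb (0.424), Ier2 (0.385) and Jun (0.383) were intermediate, and Fosl2 (0.223) and Jund (0.205) were near the median. In this fit large fold changes in Fosb came with wide errors, while Fosl2 reached its call in ApoYap Dox with a fold change of 2.11. The estimate for each gene is shared by all groups. For Fosb the highest library over the lowest was 144.5 in Lats1/2 KO, 2.22 in ApoYap Dox and 2.04 in ApoYap ctrl. With edgeR fitted to the ApoYap groups alone, adjusted p was 5.88e-06 for Fosb and 0.000112 for Fosl2.

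Likeness was measured over the 25 libraries as the root mean square difference of centred log2 CPM profiles among 8709 genes. Genes that vary little lie near each other on this measure, so distances are not comparable between members. The root mean square of the member's own profile was 0.330 for Jund, 0.567 for Fosl2 and 1.198 for Fos. Outside the members, Atf3 was the gene most like Fos (0.503) and Fosb (0.703). Btg2, an early gene that slows proliferation, was the non-member most like Jun (0.308), Junb (0.396) and Egr1 (0.477), and Zfp36, which speeds the decay of unstable RNAs, was the non-member most like Ier2 (0.492). Another member was nearer still in 3 cases: Jun lay at 0.340 from Junb, 0.391 from Egr1 and 0.429 from Ier2. The non-members nearest to Ier3 were Art3 (0.624), Klf6 (0.752) and Cd14 (0.841), those nearest to Fosl2 were Tra2a (0.302), Dennd5a (0.313) and Mvp (0.315), and those nearest to Jund were Rsf1 (0.239), H3f3b (0.241) and Mapkapk2 (0.244). Atf3 was at 61.3, 154 and 99.3 CPM in ApoYap Dox, against 17.7, 13.6, 42.0 and 37.2 CPM in ApoYap ctrl. Btg2 was at 108, 189 and 173 CPM in ApoYap Dox, against 54.0, 62.3, 89.6 and 77.0 CPM in ApoYap ctrl.

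Related genes were counted by lists that were chosen with earlier results of these data known. Their counts stand beside 35.0% of all genes called higher and 32.0% lower in ApoYap Dox, and 20.6% higher and 17.4% lower in Lats1/2 KO. Of 24 tested other immediate early genes, 18 rose and 0 fell in ApoYap Dox, with a median log2 fold change of 2.99, beside 0.068 over all genes. Klf6, a zinc finger factor, averaged 286 ± 61.9 CPM in ApoYap Dox and 12.2 ± 2.54 CPM in ApoYap ctrl (adjusted p = 1.63e-07, edgeR), Mcl1, an inhibitor of apoptosis, 304 ± 33.5 CPM in ApoYap Dox and 68.4 ± 5.14 CPM in ApoYap ctrl (adjusted p = 1.16e-12, edgeR), and Sgk1, a stress-responsive kinase, 108 ± 48.9 CPM in ApoYap Dox and 8.38 ± 2.83 CPM in ApoYap ctrl (adjusted p = 9.02e-09, edgeR; SD, n = 3 and 4). In Lats1/2 KO 11 of the 24 rose and 0 fell, with a median of 1.16, beside -0.028 over all genes, among them Gadd45b, a stress gene, at 55.2 ± 44.0 CPM in Lats1/2 KO and 4.30 ± 1.30 CPM in flox ctrl (adjusted p = 5.75e-05, edgeR).

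Of the 16 other AP-1 and leucine zipper partners, 10 rose and 3 fell in ApoYap Dox (median 1.22), and 7 rose and 2 fell in Lats1/2 KO (median 0.941). Jdp2, which pairs with JUN proteins as a repressor, averaged 18.4 ± 3.14 CPM in ApoYap Dox and 0.528 ± 0.344 CPM in ApoYap ctrl, 5.14 on the log2 scale (adjusted p = 1.11e-10, edgeR). Maf, a large leucine zipper factor that macrophages also express, averaged 1210.5 ± 353 CPM in ApoYap Dox and 103 ± 24.5 CPM in ApoYap ctrl (adjusted p = 1.94e-09, edgeR). The 3 that fell in ApoYap Dox were Crem (-1.81), Nfe2l1 (-0.53) and Atf2 (-0.41), and Nfe2l1 also fell in Lats1/2 KO (-0.47). Nfe2l2, the regulator of antioxidant genes, was called higher in both models (1.20 in ApoYap Dox and 1.34 in Lats1/2 KO) and was the 1 gene of this list called in BL/6 AAV-Cre.

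Of 20 genes upstream of the members, 6 rose and 4 fell in ApoYap Dox, with a median of -0.15, and 4 rose and 4 fell in Lats1/2 KO, with a median of -0.13, so the calls went both ways in each, and neither share called higher exceeded that of all genes. Srf, serum response factor, averaged 26.3 ± 4.83 CPM in ApoYap Dox and 9.93 ± 0.652 CPM in ApoYap ctrl (adjusted p = 9.06e-07, edgeR), and Elk3, its ternary complex partner, 20.6 ± 5.43 CPM in ApoYap Dox and 2.15 ± 0.950 CPM in ApoYap ctrl (adjusted p = 6.53e-07, edgeR). The kinase genes Map2k2 (-0.62 in ApoYap Dox, -0.43 in Lats1/2 KO) and Map2k3 (-0.87 in ApoYap Dox, -0.70 in Lats1/2 KO) fell in both. Of 19 tested textbook AP-1 targets, 17 rose and 2 fell (Vegfa and Fn1) in ApoYap Dox, with a median of 5.20, and 15 rose and 1 fell (Vegfa) in Lats1/2 KO, with a median of 2.98. The 22 targets of the list summed to 920, 815 and 524 CPM in Lats1/2 KO 1, 2 and 3, against 564, 580, 565 and 537 CPM in flox ctrl. On that sum KO 3 lay below every control. Mmp9, a matrix protease, averaged 97.8 ± 31.2 CPM in ApoYap Dox and 0.486 ± 0.208 CPM in ApoYap ctrl (adjusted p = 4.02e-12, edgeR), and Ccnd1, the cyclin that drives entry into the cell cycle, 72.7 ± 23.8 CPM in Lats1/2 KO and 8.06 ± 2.14 CPM in flox ctrl (adjusted p = 1.49e-06, edgeR). Several of these targets, such as Mmp9, Cd44 and Vim, are also expressed by immune or mesenchymal cells. Of 8 heat shock genes, 1 rose (Hspa1a, 2.99) and 4 fell in ApoYap Dox, and 6 fell and 0 rose in Lats1/2 KO. In BL/6 Dox the genes of these lists that were called were Dusp1 and Hsp90aa1, both lower. The summed level of the heat shock genes was 542, 560.2 and 472 CPM in ApoYap Dox, against 812, 994, 881 and 658 CPM in ApoYap ctrl.

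Markers of other liver cells moved with these results. All 15 macrophage markers rose in both models, and their sum was 7975, 7855 and 12762 CPM in ApoYap Dox, against 104, 148, 229.8 and 235 CPM in ApoYap ctrl, and 802, 1883 and 911 CPM in Lats1/2 KO 1, 2 and 3, against 316, 106, 169 and 131 CPM in flox ctrl. All 12 endothelial markers rose in both as well, with a sum of 679, 591 and 1026 CPM in ApoYap Dox, against 65.5, 100.1, 121 and 148 CPM in ApoYap ctrl, and 356, 825 and 394 CPM in Lats1/2 KO, against 182, 68.9, 87.9 and 67.5 CPM in flox ctrl. Neutrophil markers summed to 19.1, 13.2 and 32.7 CPM in the ApoYap Dox libraries, against 0.283, 0.419, 1.35 and 0.401 CPM in ApoYap ctrl, and to 3.72, 4.31 and 1.11 CPM in Lats1/2 KO, against 0.329, 0.454, 0.476 and 1.08 CPM in flox ctrl. All 4 tested neutrophil markers rose in ApoYap Dox and 2 in Lats1/2 KO, while Ly6g, their defining marker, was at 0 in these 4 groups. Stellate cell markers summed to 175, 127 and 206 CPM in the ApoYap Dox libraries, against 51.6, 63.8, 76.8 and 103 CPM in ApoYap ctrl (6 of 10 rose), and to 233, 530.0 and 176 CPM in Lats1/2 KO, against 64.4, 64.7, 69.6 and 69.7 CPM in flox ctrl (9 of 10 rose). Bile duct markers summed to 223, 189 and 148 CPM in the ApoYap Dox libraries, against 42.5, 48.2, 41.5 and 55.4 CPM in ApoYap ctrl, where Spp1 rose, and to 290.1, 173 and 91.5 CPM in Lats1/2 KO, against 46.6, 89.2, 56.3 and 72.2 CPM in flox ctrl, where Sox9 and Spp1 rose. No lymphocyte marker had enough counts to be tested, and their sum was 1.73, 0.724 and 1.11 CPM in ApoYap Dox, against 0.0706, 0.0838, 0.519 and 0 CPM in ApoYap ctrl. These cells express AP-1 genes too, and what they contribute to the members' levels was not tested. In Lats1/2 KO the macrophage, endothelial and stellate sums were highest in KO 2, the bile duct sum ran in the members' order, highest in KO 1 and lowest in KO 3, and the neutrophil sum was lowest in KO 3. In bulk RNA, fewer hepatocytes and less RNA per hepatocyte cannot be told apart.

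**Figure D5:**
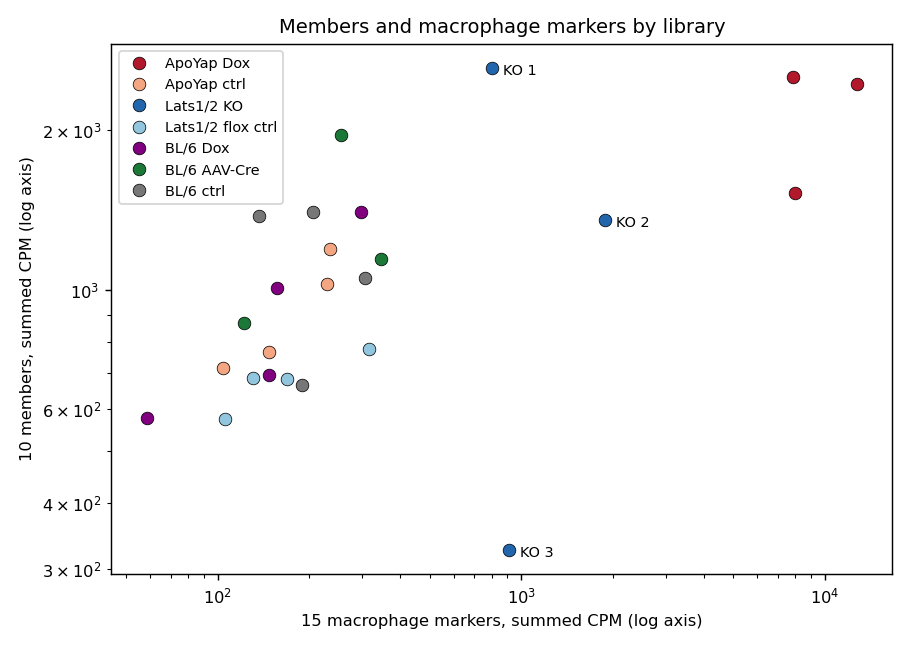
Summed CPM of the 10 members (y, log axis) against the summed CPM of 15 macrophage markers (x, log axis) in each of the 25 libraries, coloured by group. The ApoYap Dox libraries lie at 7855 CPM of marker RNA or more, and the Lats1/2 KO libraries lie at 802 to 1883 CPM of marker RNA and at 326 to 2610.3 CPM of the members.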

How the data were processed

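Hepatocyte RNA was sequenced with a 3′-end kit (QuantSeq 3′ mRNA-Seq FWD) in 25 libraries of 7 groups. Per the submitters' processing notes the tools were FastQC, cutadapt and STAR 2.6.1d, and the build was mm10 (GRCm38). Which tool counted the reads, with which annotation and strand setting, is not given in the sources used here. The authors deposited raw counts per gene symbol and library, with no normalization.

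The counts were fitted with edgeR 4.0.16 (R 4.3.3). After the filterByExpr filter (minimum count 10, minimum total 15) 12970 genes remained, and TMM scaled the libraries. A robust quasi-likelihood model with 1 mean per group over all 25 libraries was tested by contrast, with Benjamini-Hochberg adjustment over all genes and a threshold of 0.05. Standard errors are log2 fold changes divided by the root of F, and fold changes use a prior count of 0.125. The library totals above set the depth. The labels name no molecular identifiers, so limits on counts cover counting error only. The lowest chi-square per degree of freedom between replicates was 7.69, well above sampling noise for every pair. The fit was also run on simulated data in which few genes changed. Such data cannot test the scaling where many genes move, and no conclusion is drawn from them.

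The members and all gene lists were chosen with earlier results of these data known. All 10 members are named. Of each other list the text could name up to 4 genes with the smallest p in each model and any called against the direction of most. Some genes of these lists are not reported here. The likeness rule takes the 3 nearest tested genes whose log2 CPM averages 2 or more. Ccn2, Amotl2, Ankrd1 and Dusp1 were named outside that rule, after their values were seen. As alternatives, the scaling was changed (RLE, total counts, TMM without the top 50 genes), the filter was dropped or set to 10 CPM in 3 libraries, DESeq2 1.42.0 replaced edgeR, and the fit held only the groups compared or the replicate number as a block. Stricter thresholds (adjusted p under 0.01, or at least 1 on the log2 scale) were applied, and each library in turn, or BL/6 Dox 1 and 2 together, was left out. Promoters are from RefSeq (GRCm38.p6) and positions from GENCODE M21.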

Additional observations from a re-analysis of the deposited data

Results flagged for a closer look

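In 36 tests of a group of 4 libraries (9 genes in 4 groups), 1 library lay far from the other 3: Ier3 was at 12.5 CPM in BL/6 ctrl 4, against 1.29 to 2.63 CPM in the other BL/6 ctrl libraries. Chance alone flags about 1 in 20 such groups. Without that library the Ier3 difference of BL/6 Dox from BL/6 ctrl was -0.10, against -1.20 with it.

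The effect of doxycycline differed between the ApoYap strain and BL/6 mice for 5 of the 9 members, by edgeR's test of the difference itself. The differences were 2.54 for Fos, 4.00 for Fosb, 1.51 for Fosl2, 6.45 for Ier3 and 1.71 for Junb on the log2 scale, where 26.7% of all genes were called higher. Without BL/6 Dox 1 and 2 the differences for Fos, Fosb and Junb were no longer called (adjusted p = 0.127, 0.0699 and 0.148, edgeR). That pair held the lowest BL/6 Dox values of these genes, so smaller differences were bound to follow.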

How the results depend on the processing

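In ApoYap Dox against its control all 9 members kept a positive sign under every alternative run, and 4 to 7 were called when 1 library was left out, 8 with DESeq2, and 9 with total counts or only the groups compared. With a log2 fold change of at least 1, 5569 genes were called in ApoYap Dox in place of 8684, 2577 of 4926 in Lats1/2 KO, 2036 of 3167 net of virus, 2398 of 3863 between the models and 122 of 535 in flox ctrl against BL/6 ctrl. The 3 members called in Lats1/2 KO became 7 with total counts, 1 with only the groups compared, 5 with DESeq2 and 0 to 8 without 1 library. The 5 members called net of doxycycline became 2 at an adjusted p under 0.01, 9 with total counts, 2 without BL/6 Dox 1 and 2, and 3 to 6 without 1 library. Net of virus, 0 to 3 were called without 1 library. For most of these fits the share of all genes called higher is not given here. These member counts therefore show only how the calls moved with the processing. Without KO 3, Junb in Lats1/2 KO was 0.88 and Fos net of virus 1.47. Junb in Lats1/2 KO (-0.24) and Fos net of virus (-0.11) changed sign without KO 1. Members called lower in flox ctrl against BL/6 ctrl became 2 with only the groups compared and 1 with DESeq2. Genes called in BL/6 Dox (16) became 4 at an adjusted p under 0.01, 66 without BL/6 Dox 1 and 2, 120 with DESeq2 and 4 to 32 without 1 library. Genes called in BL/6 AAV-Cre (39) became 10 at an adjusted p under 0.01, 17 with a log2 fold change of at least 1, 61 with the 10 CPM filter, 502 with only the groups compared, 191 with DESeq2 and 7 to 121 without 1 library. At an adjusted p under 0.01 the counts were 1658 net of virus, 2369 between the models, 151 for flox ctrl and 32 (of 57) for ApoYap ctrl against BL/6 ctrl. With only the groups compared they were 823 for flox ctrl and 195 for ApoYap ctrl, and DESeq2 gave 110 for ApoYap ctrl. Without 1 library they were 202 to 429 for flox ctrl and 33 to 50 for ApoYap ctrl. The cause of each change was not tested, except that a stricter threshold calls fewer genes. Replicate numbers were not taken to pair libraries. Deviations of same-numbered ApoYap Dox and ApoYap ctrl libraries correlated at 0.090, 0.051 and 0.163, and those of Lats1/2 KO and flox ctrl at -0.12, -0.238 and -0.002. Differently numbered libraries were not compared, so these values do not decide whether the numbers pair libraries. With the replicate number as a block, 8544 genes and 6 members were called in ApoYap Dox and 4724 genes and 3 members in Lats1/2 KO.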
